A study of Felis catus with 8 samples.

Results

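NR4A1, NR4A2 and NR4A3 are the 3 members of one small family of nuclear receptors, described here in the liver of male domestic cats raised on 4 diets. They were read by 35 probe sets of a human gene array, chosen because the platform annotation names exactly 1 gene for each and that gene is an NR4A receptor. NR4A1 had 13 such probe sets, NR4A2 had 12 and NR4A3 had 10, out of 224320 probe sets with a single gene name and 257101 in all, which name 18701 genes. The family was selected on measured values as well: some probe sets of NR4A2 were known to stand higher on the monosodium glutamate diet than on the control diet. That difference is therefore given as a description with no test, for all 3 genes.

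Snap-frozen liver was taken from cats aged 9 months, and 2 arrays were available for each diet. Control cats ate a standard feline chow. For the MSG group the chow was supplemented with 1.125% monosodium glutamate (MSG), which enhances flavour. The trans-fat/HFCS group received feed with 24% high-fructose corn syrup (HFCS) and 8.6% trans fat. Cats on the combined diet received all 3 additions at these levels. In all 4 groups the dams ate the diet from 3 weeks before mating through lactation, and their sons kept to it after weaning, so each group differs from control both before and after birth. The labels give each array its own cat number within a pair of biological replicates. They name no litter and leave pooling of RNA unstated, so p-values measure the spread between arrays. Cat RNA was read with human probes, so signal depends on how closely the cat and human sequences agree, and the level of one probe set cannot be set against that of another.

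Receptors of the NR4A family bind DNA as single molecules at an element named after the first member, NBRE, and NR4A1 and NR4A2 can also pair with retinoid X receptors. They are called orphan receptors because their ligand pocket is closed and their activity follows mainly the amount of protein made. Their genes are immediate early genes: transcription starts within minutes of a signal such as cyclic AMP, growth factors, calcium or inflammatory cytokines, and the messenger RNA decays fast. In mouse liver, glucagon and fasting raise the family through cyclic AMP and the factor CREB, and NR4A1 raises genes of glucose production.

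The 8 arrays had median intensities between 5.25 and 5.28, and no pair held identical values. Hepatocyte markers were present, the 9 measured of 10 averaging between 8.08 and 8.30 on the log2 scale on every array. Averages of the marker lists lay between 4.79 and 5.02 for macrophages (9 of 10 measured), 3.58 and 3.94 for lymphocytes (10 of 10), 4.38 and 4.64 for endothelium (10 of 10), 4.39 and 4.89 for stellate cells (9 of 10) and 3.77 and 4.31 for erythroid cells (4 of 8). Skeletal muscle markers set the pair of trans-fat/HFCS arrays apart, with a mean of 12 markers at 5.80 and 5.77 there and between 3.68 and 3.83 on the other 6 arrays. In whole liver, fewer cells of a type and less RNA per cell cannot be told apart. A probe set was tested only if its mean log2 intensity was above 2.43, the median over the whole array, which 18 of the 35 did: 8 of NR4A1, 7 of NR4A2 and 3 of NR4A3. The 17 dim ones lay between 1.62 and 3.24 on single arrays and are given as values only. Of the 7 NR4A2 probe sets above that level, 4 would pass it without the MSG arrays, and 8055955, 8055957 and 8055963 passed only through them, as did 8156858 of NR4A3. Membership of the tested set is thus itself partly a result of the MSG diet.

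NR4A2, also known as NURR1, is best known as a factor that dopamine neurons need and is induced in liver and macrophages by cyclic AMP and inflammatory signals. Its level was higher on the MSG diet than on the other 3 diets. Averaged over its 7 tested probe sets, NR4A2 read log2 4.38 and 4.20 on the MSG arrays. It read 2.95 and 2.44 on the control arrays, 2.75 and 2.48 on the trans-fat/HFCS arrays and 2.83 and 2.71 on the combined diet. Both MSG arrays lay well above the other 6, which overlapped one another. The diet means were 4.29 ± 0.13 on MSG, 2.77 ± 0.08 on the combined diet, 2.70 ± 0.36 on control and 2.61 ± 0.19 on trans-fat/HFCS (SD, n = 2 each). The last 3 differ by less than the spread of the control arrays. The MSG diet thus stood 1.60 above control on the log2 scale, a 3.03-fold higher level over these 7 probe sets. Of the 7, 3 passed the filter only through the MSG arrays. Without a filter the difference was 1.23, and with the brightest probe set alone it was 0.22. The contrast of MSG with control chose the family and is not tested.

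The individual probe sets of NR4A2 fall into those with the high MSG values and those without. Probe set 8055953 read 6.74 and 5.84 on the MSG arrays, against 3.12 and 2.21 on control, 2.76 and 2.30 on trans-fat/HFCS and 3.32 and 2.19 on the combined diet. Probe set 8055963 read 5.40 and 5.99 on MSG, 2.51 and 2.16 on control, 2.33 and 2.26 on trans-fat/HFCS and 2.21 and 2.15 on the combined diet. In both, the 2 MSG arrays are the high ones and the other 6 lie together near the median of all probe sets. Probe set 8055955 read 4.37 and 4.43 on MSG and at most 2.66 elsewhere, and probe set 8055957 read 4.38 and 3.94 on MSG and at most 2.98 elsewhere. Differences of means between MSG and control were 3.63, 3.36, 2.09 and 2.21 for these 4 probe sets, in the order given.

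Among the 12 probe sets of NR4A2, 8 had both MSG arrays above all 6 others, where 4.19% of all probe sets with a single gene name did. As the rule used this contrast, the share is printed for scale only. The 8 include 4 dim probe sets, 8055958, 8055960, 8055962 and 8055964, whose MSG arrays lay between 2.67 and 3.24, and the difference of means from control over the 8 ranged from 0.70 to 3.63. The other 4 did not share the pattern. Probe set 8055956, which had the highest mean of the 12, read 3.94 and 4.13 on MSG and 4.00 and 3.63 on control. Probe sets 8055959 and 8055961 differed by -0.12 and -0.20 between MSG and control, and the dim 8055954 by -0.11. Correlation of a probe set with the mean of the other 11 was taken over the 8 arrays, whose points share those arrays. It lay between 0.81 and 0.97 for the 8 probe sets with high MSG arrays and between -0.58 and 0.23 for the other 4. The MSG arrays both define the 8 and dominate that mean, so this split follows largely from the grouping. Where in the transcript each lies is not given by the annotation used here.

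**Figure D1:**
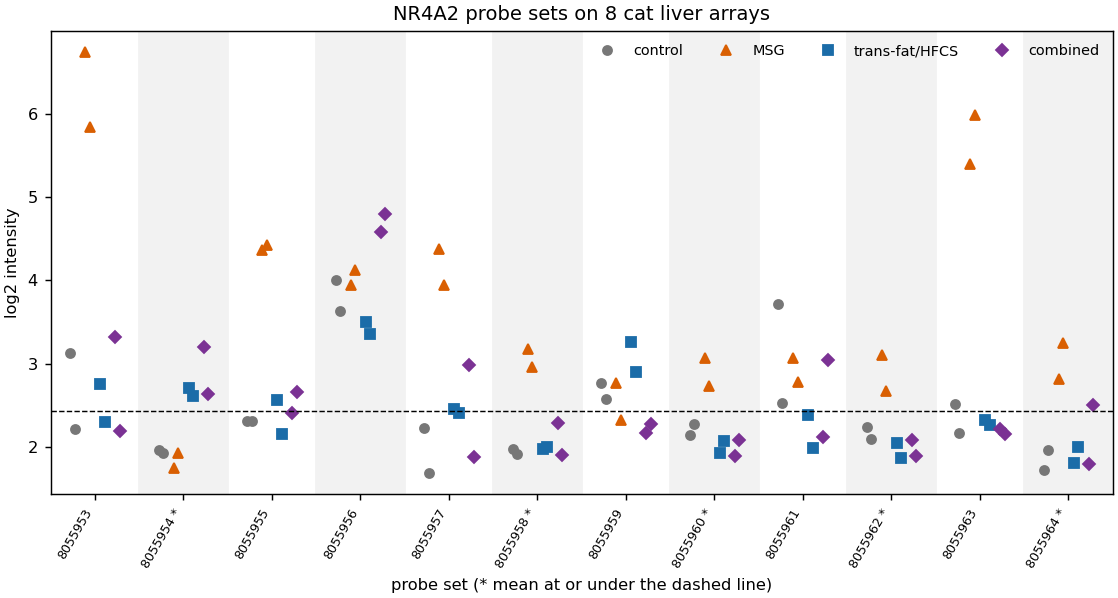
Log2 intensity of the 12 NR4A2 probe sets (x axis) on the 8 arrays, 1 point per array, with the diets told apart by colour and shape. The dashed line is the median of all probe set means, 2.43. Both MSG arrays lie above all others in 8 probe sets, up to 6.74 in 8055953, while 8055956 is highest on the combined diet.

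The combined and trans-fat/HFCS diets differ by MSG alone and share no array with the contrast behind the choice of the family. They give a separate measurement of an MSG difference, although the filter and the pooled spread of the test use all 8 arrays. Skeletal muscle markers also differed, at 5.80 and 5.77 on trans-fat/HFCS and 3.83 and 3.77 on the combined diet. Their part was not tested. NR4A2 did not pass between these diets. The combined diet stood 0.16 above trans-fat/HFCS on the log2 scale (SE 0.21, 95% interval -0.32 to 0.63, adjusted p = 0.87 in limma). That mean includes the 3 probe sets that passed the filter only through the MSG arrays and lay near the lower end of the scale on both diets compared. With a filter on the 6 other arrays, chosen after the values were seen, 5 probe sets stood for NR4A2, and the difference was 0.26 (SE 0.22, 95% interval -0.24 to 0.75, adjusted p = 0.77 in limma). With its brightest probe set alone, 8055956, it was 1.26 (adjusted p = 0.15 in limma). Over the 8 probe sets with high values on the MSG diet, this difference of means ranged from -0.11 to 0.25. How far the MSG difference itself depends on the base diet is not tested, since that holds the contrast of the rule.

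Probe set 8055956 went another way. It read 4.59 and 4.80 on the combined diet and 3.50 and 3.35 on trans-fat/HFCS, so those groups did not overlap, and the difference was 1.26 (SE 0.26, unadjusted p = 0.0022). It did not pass after adjustment over all 128550 probe sets tested (adjusted p = 0.29 in limma). Probe set 8055959 read 2.16 and 2.28 on the combined diet and 3.26 and 2.90 on trans-fat/HFCS, a difference of -0.86 (SE 0.28, adjusted p = 0.51 in limma). It was highest on the 2 trans-fat/HFCS arrays, those with high skeletal muscle markers, whose part in the value was not tested.

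Across the family, none of the 18 tested probe sets passed limma's test between the combined and trans-fat/HFCS diets at an adjusted p under 0.05, where 0.0793% of all probe sets passed. The 18 include 3 probe sets of NR4A2 and 1 of NR4A3 that passed the filter only through the MSG arrays. With a filter on the 6 other arrays, chosen after the values were seen, 0 of 15 passed. At an unadjusted p under 0.05 there were 3 of 18, beside 8.06% of all probe sets: 8055956 and 8055959 of NR4A2 and 8156850 of NR4A3. At the gene level none of the 3 receptors passed, where 0.179% of the 17910 genes did, and NR4A3 alone had an unadjusted p under 0.05 (0.031), beside 8.98% of genes. Means on the combined diet exceeded those on trans-fat/HFCS in 15 of the 35 probe sets, beside 50.6% of all probe sets with a single gene name.

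**Figure D2:**
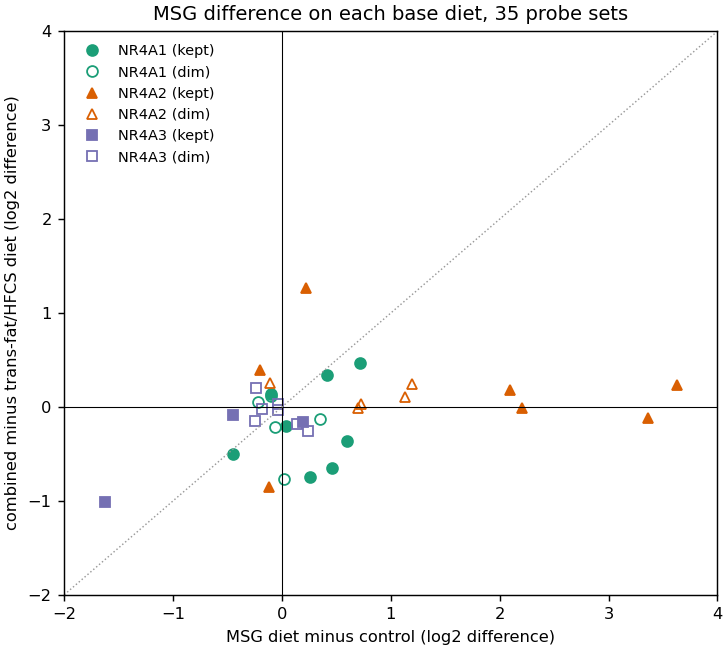
Each point is 1 of the 35 probe sets, with the MSG diet minus control on the x axis and the combined diet minus trans-fat/HFCS on the y axis (log2 differences of means of 2 arrays each). Filled points exceed the median of all probe set means and the dotted line marks equal differences. The 8 NR4A2 points with high MSG arrays reach 3.63 on the x axis with y values from -0.11 to 0.25, and the NR4A2 points farthest from 0 on the y axis are 8055956 at 1.26 and 8055959 at -0.86.

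NR4A3, also known as NOR1, is induced by cyclic AMP and exercise in skeletal muscle and by growth signals in vascular cells. Its strongest probe set was higher with trans fat and HFCS, with or without MSG. Probe set 8156859 read 8.67 and 8.75 on the trans-fat/HFCS arrays and 8.82 and 8.43 on the combined diet. It read 7.25 and 7.52 on control and 6.69 and 7.19 on MSG. All 4 arrays with trans fat and HFCS lay above the other 4. Averaged over both levels of MSG, a comparison added after the values were seen, the probe set rose 2.83-fold (log2 1.50, SE 0.21, adjusted p = 0.02 in limma). Of 11 tested probe sets of NR4A1 and NR4A3 it was the 1 that passed, beside 2.71% of all probe sets, and 4 of the 11 had an unadjusted p under 0.05, beside 17%.

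Neither single diet passed against control at that probe set. Against the control arrays, which both comparisons share, none of the 11 tested probe sets of NR4A1 and NR4A3 passed limma's test on trans-fat/HFCS, beside 1% of all probe sets, or on the combined diet, beside 0.07%. At an unadjusted p under 0.05 there were 2 and 3 of the 11, beside 13.4% and 12.4%. At 8156859 the trans-fat/HFCS diet stood 1.32 above control (SE 0.29, adjusted p = 0.12 in limma) and the combined diet 1.24 above it (SE 0.29, adjusted p = 0.18 in limma). Between the combined and trans-fat/HFCS diets the difference was -0.09 (95% interval -0.80 to 0.62). Averages of some marker lists also set the 4 arrays with trans fat and HFCS apart. Macrophage markers averaged 4.86 to 5.02 on these 4 and 4.79 to 4.82 on the other 4, with 2 of 9 genes higher on all 4. Stellate cell markers went the other way, with 4.39 to 4.70 and 4.77 to 4.89, and 3 of 9 genes lower on all 4. Skeletal muscle markers averaged 5.80 and 5.77 on trans-fat/HFCS and 3.83 and 3.77 on the combined diet. They averaged 3.68 to 3.76 on the other 4 arrays, and 2 of 12 genes were higher on all 4 with trans fat and HFCS. Of all probe sets with a single gene name, 4.06% lay higher and 3.46% lower on all 4. The share among gene averages was not taken, so these marker counts are values only. The part of these cell types in the result was not tested. Leaving out both trans-fat/HFCS arrays left the combined diet 1.68 above the MSG diet (adjusted p = 0.15 in limma). The call of the averaged comparison ended without any 1 of 6 arrays, with adjusted p up to 0.094, and held without MSG array 2 (0.048) or combined-diet array 2 (0.044). The differences then lay between 1.38 and 1.63.

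No other NR4A3 probe set followed it. Probe set 8156850 read 4.33 and 3.47 on control and 3.37 and 2.80 on trans-fat/HFCS. It read 2.28 and 2.27 on MSG and 1.79 and 2.36 on the combined diet. All 4 arrays of cats fed MSG lay below the other 4, as in 1.46% of the tested probe sets, although this ordering includes the contrast that the rule used. On the trans-fat/HFCS base the difference was -1.01 (SE 0.40, unadjusted p = 0.04), with an adjusted p = 0.60 in limma. The third tested probe set, 8156858, ranged from 2.25 to 3.04, and the 7 dim ones from 1.80 to 2.66. Averaging the 3 tested probe sets therefore joins opposite patterns, with diet means of 4.74 ± 0.13 on trans-fat/HFCS, 4.62 ± 0.13 on control, 4.32 ± 0.04 on the combined diet and 3.99 ± 0.02 on MSG (SD, n = 2 each).

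At the gene level the first pair of neighbours in that order overlap, with 4.83 and 4.65 on trans-fat/HFCS and 4.71 and 4.52 on control, and the MSG diet differed from control by -0.63. NR4A3 differed by 0.12 between trans-fat/HFCS and control (SE 0.16, adjusted p = 0.75 in limma) and by -0.42 between the combined and trans-fat/HFCS diets (SE 0.16, 95% interval -0.79 to -0.05, adjusted p = 0.50). The combined diet differed from control by -0.30 (adjusted p = 0.40 in limma). None of these passed, where 444 genes (2.48%), 32 genes (0.179%) and 207 genes (1.16%) did, in that order. These means include 8156858, which passed the filter only through the MSG arrays. With a filter on the 6 other arrays, chosen after the values were seen, 2 probe sets stood for NR4A3. The combined diet then differed from trans-fat/HFCS by -0.55 (SE 0.19, 95% interval -0.97 to -0.13, adjusted p = 0.43 in limma).

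NR4A1, also known as NUR77, is the member tied most closely to glucose production in mouse liver. None of its gene-level differences that were tested passed, and MSG against control was not tested. The mean of its 8 tested probe sets was 3.48 and 3.93 on MSG, 3.57 and 3.44 on trans-fat/HFCS, 3.39 and 3.53 on control and 3.38 and 3.25 on the combined diet. These overlap throughout apart from the lowest group, whose 2 arrays lay below all 6 others. Differences were 0.04 between trans-fat/HFCS and control (SE 0.19, adjusted p = 0.93 in limma), -0.15 between the combined diet and control (adjusted p = 0.75) and -0.19 between the combined and trans-fat/HFCS diets (95% interval -0.62 to 0.25, adjusted p = 0.82). The MSG diet stood 0.24 above control, a difference carried by MSG array 2 and smaller than the SD of 0.32 between the MSG arrays.

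Its strongest probe set again ordered the arrays by base diet. Probe set 7955592 read 6.85 and 6.50 on trans-fat/HFCS and 6.94 and 6.68 on the combined diet. It read 5.86 and 6.10 on control and 5.69 and 6.07 on MSG, so all 4 arrays with trans fat and HFCS lay above the other 4. Averages of macrophage and skeletal muscle markers shared that order by narrow gaps. The lowest average with trans fat and HFCS was 4.86 for macrophages and 3.77 for muscle, against a highest of 4.82 and 3.76 without. Only 2 of 9 macrophage genes and 2 of 12 muscle genes had that order themselves. Averages of stellate cell markers reversed it, as did 3 of 9 genes. The part of these cell types was not tested. Averaged over both levels of MSG, the 7955592 difference of 0.82 (SE 0.20) did not pass (adjusted p = 0.099 in limma, unadjusted p = 0.0053). Singly, it was 0.70 for trans-fat/HFCS against control (adjusted p = 0.36 in limma) and 0.84 for the combined diet against control (adjusted p = 0.31).

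Among the other NR4A1 probe sets, 7955598 ranged from 1.75 to 5.24, with 3.39 and 1.75 on the trans-fat/HFCS arrays and 2.60 and 5.24 on MSG. Probe sets 7955603 and 7955604 had their highest array on MSG, at 4.46 and 3.68, and differed by -0.72 and -0.84 with trans fat and HFCS averaged over MSG, with adjusted p = 0.26 and 0.24 in limma. The dim probe set 7955596 read 2.70 and 2.73 on trans-fat/HFCS and at most 2.01 elsewhere, which follows the arrays with high muscle markers, whose part in it was not tested. Correlations of a probe set with the mean of the other 12 lay between -0.42 and 0.80 over the 8 arrays, so the 13 probe sets do not give 1 common pattern.

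**Figure D3:**
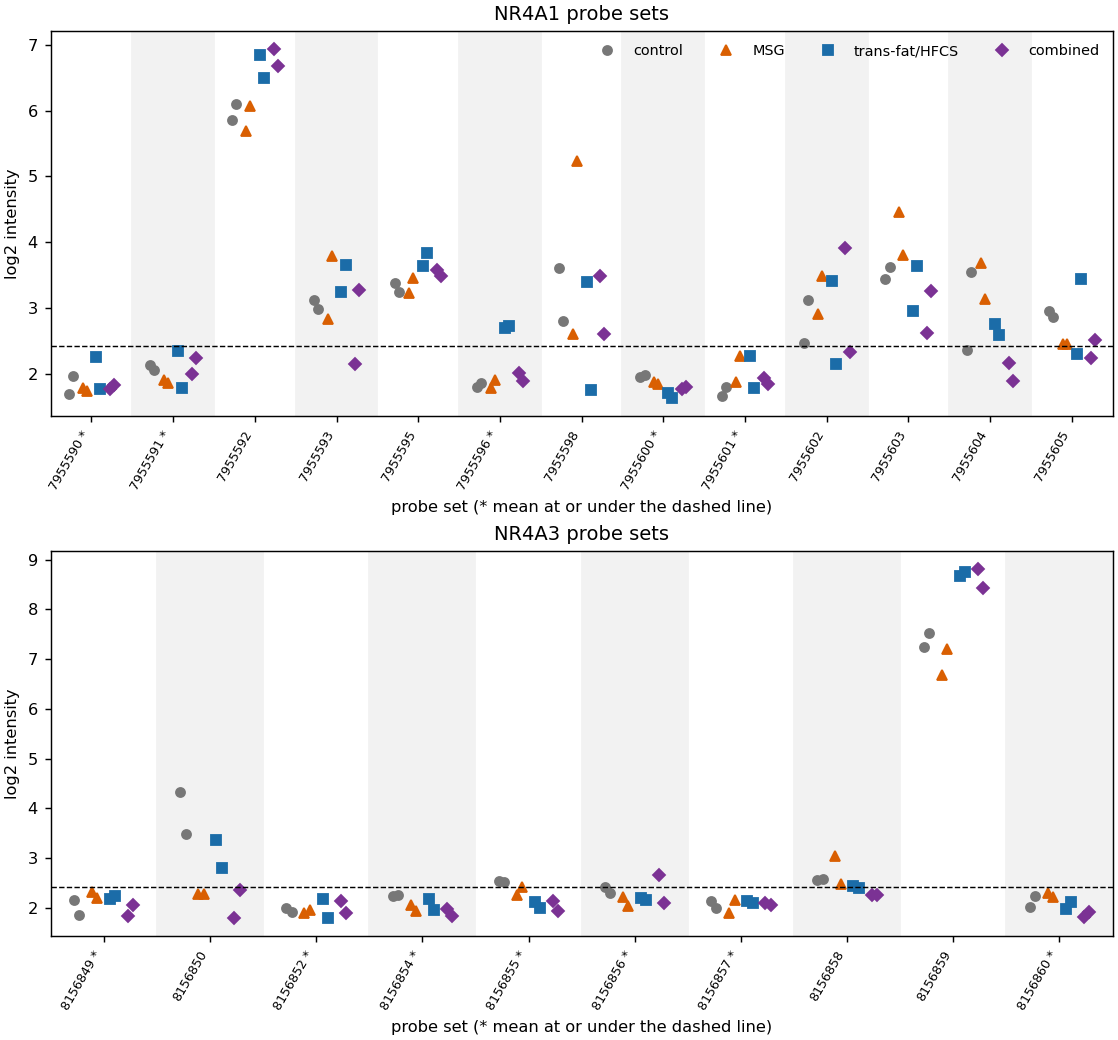
Log2 intensity of the 13 NR4A1 and 10 NR4A3 probe sets on the 8 arrays, 1 point per array, with the diets told apart by colour and shape and the dashed line at 2.43. In the brightest probe set of each gene, 7955592 and 8156859, the 4 arrays with trans fat and HFCS lie above the other 4. In 8156850 the 4 arrays of cats fed MSG are lowest.

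Over the 35 probe sets, the 4 arrays with trans fat and HFCS lay above the other 4 in 4 (11.4%) and below them in 5 (14.3%), beside 4.06% and 3.46% of all probe sets with a single gene name. Those above were 7955592 and 7955595 of NR4A1, 8055954 of NR4A2 and 8156859 of NR4A3. Those below were 7955600 of NR4A1, 8055960 and 8055962 of NR4A2, and 8156855 and 8156858 of NR4A3. Both directions thus occur within each gene, and the NR4A2 pair below are among the 8 with high MSG arrays. Most of these probe sets lie near the lower end of the scale. Dim ones are 8055954, 7955600, 8055960, 8055962 and 8156855, and 8156858 passed the filter only through the MSG arrays. In 3 probe sets, 7955595, 7955596 and 8055959, both trans-fat/HFCS arrays alone stood above the other 6, beside 4.82% of all probe sets with a single gene name. Gene levels of NR4A2 and NR4A3 ran opposite ways over the 8 arrays (r = -0.80), those of NR4A1 and NR4A2 the same way (r = 0.55), and those of NR4A1 and NR4A3 gave r = -0.36. These correlations describe 8 shared arrays, with the MSG diet as the outlying group.

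Genes with the pattern most like each receptor were taken among 650 genes with at least 2 tested probe sets and an SD over the arrays of at least 0.5. For NR4A2 the nearest was SLC25A25, which exchanges ATP-Mg for phosphate across the inner mitochondrial membrane (r = 0.98 over 8 arrays), at 6.79 and 6.39 on MSG and at most 4.53 elsewhere. DIO2, the deiodinase that activates thyroxine, followed (r = 0.96), at 5.16 and 5.43 on MSG and at most 3.61 elsewhere. CPT1A, the entry enzyme of mitochondrial fatty acid oxidation in liver, had r = 0.94 over 11 probe sets, at 5.77 and 5.97 on MSG and at most 4.78 elsewhere. The alcohol dehydrogenase ADH7 (r = 0.90) and the zinc-activated channel ZACN (r = 0.88) completed the 5. All 5 had both MSG arrays above the other 6. As NR4A2 varies mainly through its MSG arrays, choosing genes by correlation with it favours that pattern, which is therefore no independent support.

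NR4A3, as the mean of its 3 probe sets, was most like ODF3L2 (r = 0.96), the T cell costimulatory ligand ICOSLG (0.95), the T cell receptor segment TRAJ17 (0.94), the polo-like kinase PLK2 (0.94) and the proton pump subunit ATP6V1C2 (0.93). PLK2 rested on 15 probe sets and read 5.92 and 5.58 on MSG, 6.57 and 6.68 on the combined diet, 6.99 and 7.03 on control and 7.18 and 7.38 on trans-fat/HFCS. NR4A1 had no close match, with a highest r of 0.82 for GABRG3, a subunit of GABA-A receptors, 0.79 for TRIM34, KLHDC6 and ADAD1, and 0.76 for the lipid droplet protein PLIN3.

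**Figure D4:**
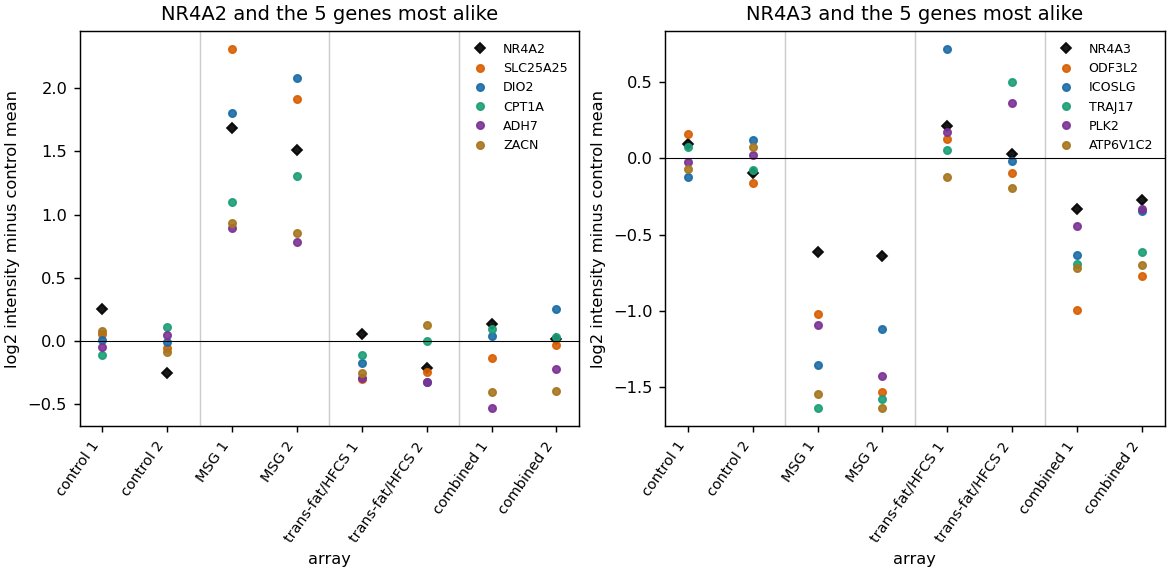
Log2 intensity minus the mean of the control arrays for NR4A2 (left) and NR4A3 (right) with the 5 genes of highest correlation to each, at the gene level on the 8 arrays. Black diamonds are the receptors. The genes beside NR4A2 are high on both MSG arrays, and those beside NR4A3 are lowest there, patterns that the choice by correlation favours.

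The signal path to CREB, through which hormones raise the NR4A genes, was described by a list of receptors, adenylyl cyclases, protein kinase A subunits and CREB coactivators. Of 17 listed genes 15 were measured, and none passed limma's test for MSG on chow or on the trans-fat/HFCS base, with 0 and 1 at an unadjusted p under 0.05, beside 7.64% and 8.98% of all genes. The glucagon receptor GCGR differed by 0.10 on chow and 0.03 on the trans-fat/HFCS base, CREB1 by -0.01 and 0.21, and the coactivator CRTC2 by 0.01 and 0.13. With trans fat and HFCS averaged over MSG, the catalytic subunit PRKACB fell by 0.64 (adjusted p = 0.03 in limma) and the other 14 did not pass, beside 7.66% of all genes.

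Genes known to respond to cyclic AMP split in direction on the MSG diet. This list was written with earlier results of these arrays known, so its counts are no independent support. Of 19 measured, 4 rose and 2 fell on MSG against control, beside 0.296% of all genes, with a median of 0.22 against 0.00 for all genes. Those that rose were FST, which encodes the activin-binding protein follistatin (log2 2.61), SLC25A25 (2.11), DIO2 (1.94) and the MAP kinase phosphatase DUSP1 (1.49), with adjusted p from 0.00036 to 0.0075 in limma. FOS (-1.19) and the stress gene GADD45B (-1.08) fell, with adjusted p = 0.047 and 0.039. CREM, whose short form ICER answers cyclic AMP, differed by 0.43 (adjusted p = 0.53) and the kinase SIK1 by 0.34 (adjusted p = 0.79).

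On the trans-fat/HFCS base none of the 19 passed for MSG in limma, where 0.179% of all genes did, with 3 at an unadjusted p under 0.05, beside 8.98% of all genes, and a median of -0.03. FST differed by 0.26 there, SLC25A25 by 0.19 and DIO2 by 0.40, beside 0.16 for NR4A2, while DUSP1 differed by -0.78 (adjusted p = 0.18 in limma). Averaged over MSG, 1 of the 19 rose with trans fat and HFCS and 7 fell, beside 7.66% of all genes called in either direction. The MSG arrays of the rule enter that average. Against control, 1 rose and 0 fell on trans-fat/HFCS, beside 2.48% of all genes. On the combined diet 1 rose and 3 fell (DUSP1, FOS and GADD45B), beside 1.16%. The gene that rose in both was FST, by 1.81 (adjusted p = 0.0015 in limma) and 2.08 (adjusted p = 0.0051 in limma). FST thus stood above control on all 3 other diets, unlike NR4A2. DIO2 differed by -1.02 in the average (adjusted p = 0.0031 in limma) and by -0.25 between trans-fat/HFCS and control (adjusted p = 0.5 in limma).

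**Figure D5:**
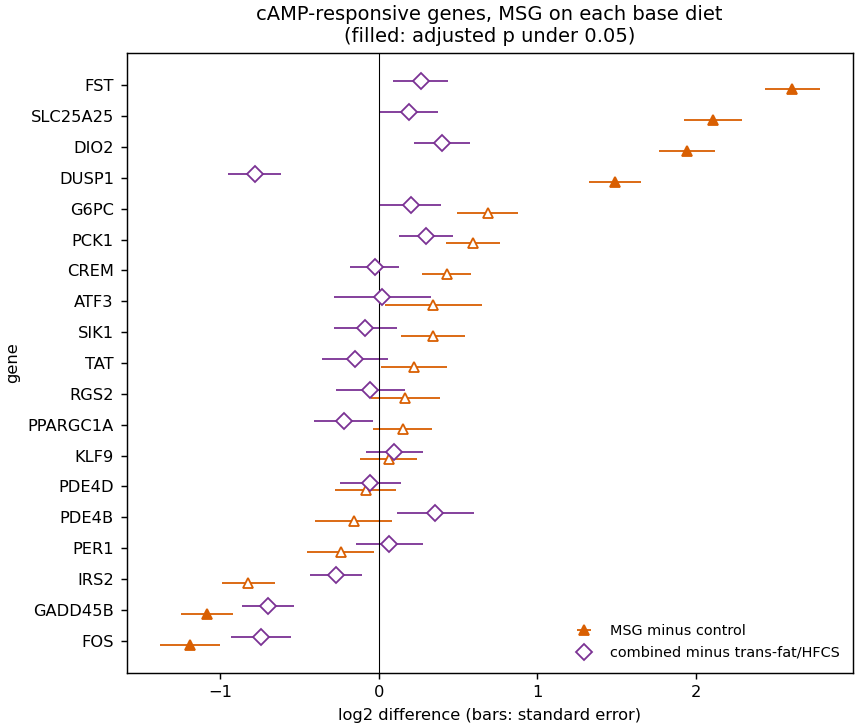
Log2 differences at the gene level for 19 genes known to respond to cyclic AMP, with MSG against control as triangles and the combined against the trans-fat/HFCS diet as diamonds. Bars are limma's standard errors and filled symbols have an adjusted p under 0.05. FST, SLC25A25, DIO2 and DUSP1 lie at 1.49 or more on chow, and no diamond is filled.

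Other immediate early genes did not share the NR4A2 pattern as a group. Of 24 measured, 1 rose (DUSP1) and 2 fell on MSG against control, beside 0.296% of all genes, and the median was -0.11. EGR1, a zinc finger factor, fell by 2.04 (adjusted p = 0.0042 in limma), and FOS was the other that fell. MYC stood 1.15 higher (adjusted p = 0.053). On the trans-fat/HFCS base none of the 24 passed in limma, with 7 at an unadjusted p under 0.05, beside 8.98% of all genes, and a median of -0.19.

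Genes of glucose output that NR4A receptors are known to raise in mouse liver did not pass for MSG in limma on either base. On chow 7 of 8 had a positive difference and 2 had an unadjusted p under 0.05, beside 7.64% of all genes, with a median of 0.12. The glucose-6-phosphatase G6PC stood 0.69 higher (adjusted p = 0.35) and PCK1, the first committed enzyme of glucose synthesis, 0.60 higher (adjusted p = 0.36). On the trans-fat/HFCS base their differences were 0.20 and 0.30, and 1 of 8 had an unadjusted p under 0.05, beside 8.98% of all genes. Averaged over MSG, G6PC fell by 0.56 with trans fat and HFCS (adjusted p = 0.039 in limma), the 1 call among the 8, beside 7.66% of all genes. The high MSG arrays, at 9.45 and 9.07, enter that average. Against control, G6PC differed by -0.32 on trans-fat/HFCS (adjusted p = 0.42 in limma) and by -0.12 on the combined diet (adjusted p = 0.81 in limma), and neither passed.

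The retinoid X receptors, partners of NR4A1 and NR4A2 on DNA, did not pass in limma for MSG. RXRA differed by 0.23 on chow and -0.07 on the trans-fat/HFCS base, RXRB by 0.05 and 0.46 and RXRG by 0.14 and 0.10, with 0 and 1 of the 3 at an unadjusted p under 0.05, beside 7.64% and 8.98% of all genes. Among other orphan nuclear receptors, 14 of 16 were measured and none passed for MSG on chow in limma, where 0.296% of all genes did, with 1 at an unadjusted p under 0.05, beside 7.64%. With trans fat and HFCS averaged over MSG, NR0B2, the bile acid-induced repressor SHP, rose by 0.56 (adjusted p = 0.03 in limma) and the other 13 did not pass, beside 7.66% of all genes.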

How the data were processed

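The values were deposited by the authors as intensities on a linear scale, 1 per exon-level probe set of an Affymetrix HuGene 1.0 ST array. Per the submitters' processing notes, GCRMA, Partek and the human build hg19 were named, without version, role or order. Biotin-labelled DNA was made from 250 ng of RNA, per the labels' protocols. The lowest value was 2.22 and the highest 22966.4, so values were taken as linear and turned to log2 here. Gene names came from the platform annotation, and all 3 receptors were found among RefSeq's cat genes of F.catus_Fca126_mat1.0, used for names only. Protein and promoter sequences are not used here.

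Probe sets with a mean above the median of all (128550) were fitted by lmFit and eBayes (limma 3.58.1, R 4.3.3; two-sided tests) in a 4-diet model with 4 residual degrees of freedom. Gene levels average the tested probe sets with 1 gene name (17910 genes). Benjamini-Hochberg adjustment ran over all probe sets or genes, with a threshold of 0.05. The steps were tested on simulated data. Arrays have no read depth, and their number limits precision. The members and gene lists were chosen with earlier results of these data known. List members named are those that passed and up to 4 of smallest p, besides GCGR, CREB1, CRTC2, CREM, SIK1 and RXR genes, added for their role after their values were seen. The genes most alike are the 5 of highest Pearson r.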

Additional observations from a re-analysis of the deposited data

How the results depend on the processing

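The replicate numbers of the labels did not pair the arrays: deviations from the diet mean of arrays with the same number correlated between -0.06 and 0.04 across genes. With the replicate number as a block, NR4A2 kept its difference of 0.16 between the combined and trans-fat/HFCS diets (adjusted p = 0.85 in limma), 0 NR4A probe sets passed in any planned comparison, and the block changed no call.

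Which probe sets stand for a gene decided most signs. With the brightest probe set or the 75th percentile filter, which each leave the same single probe set for a gene, NR4A1 turned to 0.14 for the combined against the trans-fat/HFCS diet and to 0.84 for the combined diet against control, and NR4A3 turned to 1.24 for the latter (adjusted p = 0.053 and 0.047 in limma). NR4A3 then passed for trans-fat/HFCS against control at 1.32 (adjusted p = 0.035 and 0.03). For MSG against control both settings gave -0.10 for NR4A1, 0.22 for NR4A2 and -0.45 for NR4A3. NR4A2 moved from 0.16 to 1.26 between the combined and trans-fat/HFCS diets under both (adjusted p = 0.15 and 0.14), to 0.26 with a filter on the 6 arrays without the MSG diet, and to 0.021 to 0.29 when single arrays were left out. With the median of the probe sets, NR4A2 turned to -0.088 between the combined and trans-fat/HFCS diets, and NR4A3 moved to -0.82 for trans-fat/HFCS and to -1.14 for MSG against control. Without a filter, NR4A3 turned to -0.027 for trans-fat/HFCS against control, and MSG against control gave 1.23 for NR4A2 and -0.22 for NR4A3. The smaller values there average in dim probe sets.

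The count of NR4A probe sets called for trans-fat/HFCS against control rose from 0 to 1, NR4A3 probe set 8156859, with an intensity trend (adjusted p = 0.037 in limma) and when averaged over both levels of MSG with NR4A2 left out, 11 probe sets in place of 18. Over all 18 that average gave 2 calls, the other being NR4A2 probe set 8055963. That call is not read as a result. The probe set passed the filter only through the MSG arrays of the rule, and these arrays enter the average. Against control it differed by -0.04 on trans-fat/HFCS and by -0.16 on the combined diet. The average turned NR4A1 to -0.17 at the gene level. Leaving out single arrays gave -0.026 to 0.11 for NR4A1 in trans-fat/HFCS against control, and for MSG against control 0.017 to 0.47 for NR4A1 and 1.34 to 1.85 for NR4A2. The lowest for NR4A1 in that contrast came without MSG array 2.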

Other observations

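The annotation names both NR4A3 and EWSR1, an RNA-binding protein gene that fuses with NR4A3 in human sarcomas, for 2 further probe sets, which the comparisons above leave out. Probe set 8156853 read 3.43 and 3.29 on the trans-fat/HFCS arrays and between 2.42 and 2.78 on the other 6. These are the 2 arrays whose skeletal muscle markers were high, whose part in the value was not tested. Probe set 8156851 ranged from 2.54 to 2.95 over the 8 arrays.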
